A study of Mus musculus with 4 samples.

Results

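The genes described here are 10 components of canonical Wnt signalling in mouse embryonic stem (ES) cells. They are the coactivator Ctnnb1, the DNA-binding factors Tcf7l1, Tcf7l2, Tcf7 and Lef1, and the target genes Axin2, Nkd1, Sp5, Dkk1 and Lgr5. They were chosen by name from a table of 27542 genes and transcribed loci, and each symbol had 1 row. The samples were TBV2 cells, an established mouse ES cell line, grown in serum with leukaemia inhibitory factor (LIF), on feeder cells at high density according to the series description. One condition was a knockdown (KD) of the long noncoding RNA T-UCstem1 in 3 clones. The other was the non-targeting control (NT), with 1 library. The authors combined the 3 clones into 1 value per gene, so the values used here show no spread between samples. No SD or n accompanies them, and per-clone values were not analysed here. Levels are FPKM, that is fragments for each kilobase of a transcript, scaled to all mapped fragments. How the knockdown was delivered is not given in the sources used here, and the level of T-UCstem1 itself was not analysed here.

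In canonical Wnt signalling, a Wnt ligand binds a Frizzled receptor and an LRP co-receptor at the cell surface. This stops the destruction complex from marking beta-catenin, the product of Ctnnb1, for breakdown. Beta-catenin then enters the nucleus, where it binds factors of the TCF/LEF family and activates their target genes. In mouse ES cells the most studied of these factors is Tcf7l1, also called TCF3, which represses pluripotency genes, and beta-catenin relieves that repression. Several targets, among them Axin2, Nkd1 and Dkk1, encode inhibitors that feed back on the pathway.

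None of the 10 genes was called different between KD and NT. Of the 10, Cuffdiff had tested 7, and the authors' deposited table marked 0 of them as significant. Of all 15477 tested rows 1.15% were marked, 0.963% with a higher and 0.187% with a lower KD value. At an unadjusted p under 0.05 there was 1 gene, Dkk1, where 6.10% of tested rows passed with a higher KD value and 2.78% with a lower one. On the scale log2((KD FPKM + 1)/(NT FPKM + 1)), where a value above 0 means a higher level in KD cells, the median of the 10 genes was 0.038. The median over 11993 named genes that reached 1 FPKM in either condition was 0.021, with quartiles of -0.16 and 0.22. By value, Ctnnb1 and 3 of 4 TCF/LEF factors were lower in the KD, and all 5 targets were higher. Tcf7l1, the factor above 0 at 0.020, was at -0.0012 when centred on all genes and at -0.24 when centred on its chromosome. Tcf7l1, Tcf7 and Lef1 lay within the quartiles given above. Nkd1, Sp5 and Lgr5 did too, but at their levels a pseudocount of 1 FPKM keeps any difference small. They are also not among the genes that gave the quartiles. With a pseudocount of 0.1 Nkd1 was at 0.68, Sp5 at 1.10 and Lgr5 at 0.48. Of the 5 targets 3 were under 1 FPKM in both conditions, where 73.1% of named genes were higher in the KD.

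**Figure D1:**
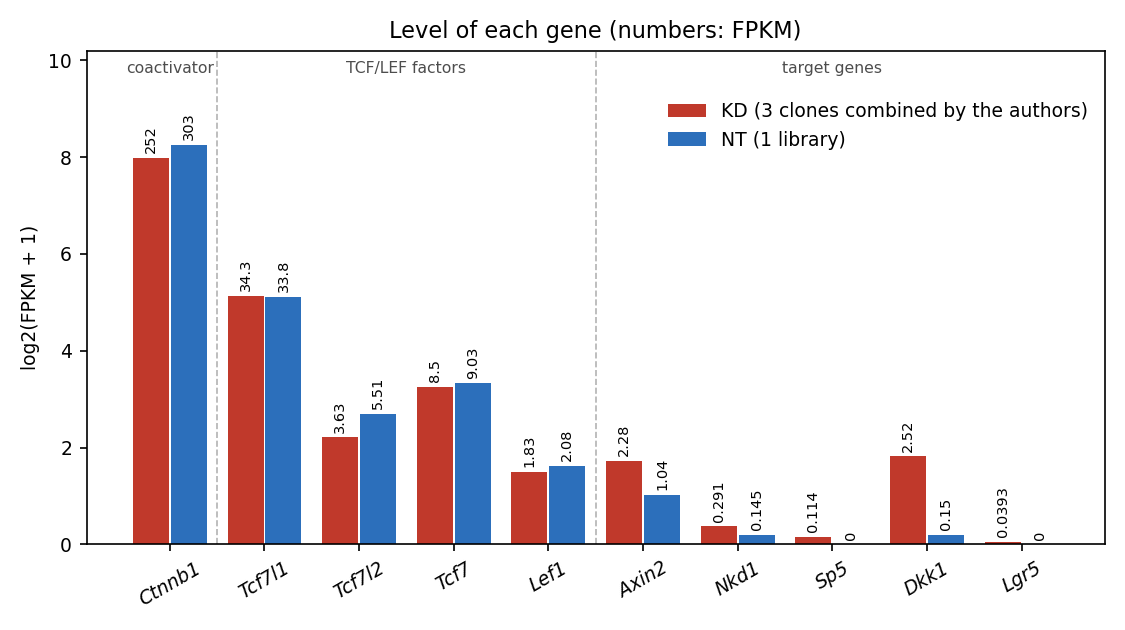
Level of each of the 10 genes in the KD (red, 3 clones combined by the authors) and the NT control (blue, 1 library), as log2(FPKM + 1) on the vertical axis with the FPKM printed above each bar. Ctnnb1 stands highest at 252 FPKM in KD cells and 303 FPKM in NT cells, and no target gene exceeds 2.52 FPKM.

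Ctnnb1 encodes beta-catenin, which serves both as the nuclear coactivator of the pathway and as a link between cadherins and the actin cytoskeleton. Its locus is chromosome 9, 120842517 to 120869625 (mm9, as for all loci in the authors' table). Ctnnb1 was at 252 FPKM in KD cells and 303 FPKM in NT cells, a ratio of 0.830. It was the most abundant of the 10, above 97.9% of the 11993 expressed named genes in the KD and above 98.3% of them in NT. The log2 difference was -0.27, and the authors' deposited table gave p = 0.239 and q = 0.973. The absolute log2 difference was larger than that of 59.3% of tested rows.

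The TCF/LEF factors share a DNA-binding domain and bind the same core motif, but differ in how strongly they repress or activate. Tcf7l1, the main repressor of the family in ES cells (chromosome 6, 72576364 to 72739039), was at 34.3 FPKM in KD cells and 33.8 FPKM in NT cells. Tcf7, also called TCF1 and usually an activator (chromosome 11, 52065796 to 52096818), was at 8.50 FPKM in KD cells and 9.03 FPKM in NT cells. Tcf7l2, also called TCF4 (chromosome 19, 55816242 to 56008147), was at 3.63 FPKM in KD cells and 5.51 FPKM in NT cells. Both conditions thus had the same order of levels per transcript length, with Tcf7l1 at 4.03 times Tcf7 in the KD and at 3.74 times Tcf7 in NT. Lef1, usually an activator (chromosome 3, 130813214 to 130927275), was the lowest, at 1.83 FPKM in KD cells and 2.08 FPKM in NT cells. Whether neighbours in this order differ beyond the spread between samples cannot be told from 1 value per condition.

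Tcf7l1 made up 71.1% of the summed TCF/LEF FPKM in KD cells and 67.0% in NT, and the sum itself was 48.2 FPKM in KD cells and 50.4 FPKM in NT cells. The share of Tcf7l2 was 7.53% in the KD and 10.9% in NT. Tcf7l2 had the largest log2 difference of the 4 factors, -0.49, for which the authors' deposited table gave p = 0.124 and q = 0.806. The difference for Tcf7l1 was 0.020, for which the authors' deposited table gave q = 0.999. Genes of chromosome 6 had a median log2 difference of 0.26 over 551 named genes, and relative to its chromosome the difference for Tcf7l1 was -0.24. The differences for Tcf7 and Lef1 were -0.078 and -0.12, both within the quartiles of all expressed named genes.

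**Figure D2:**
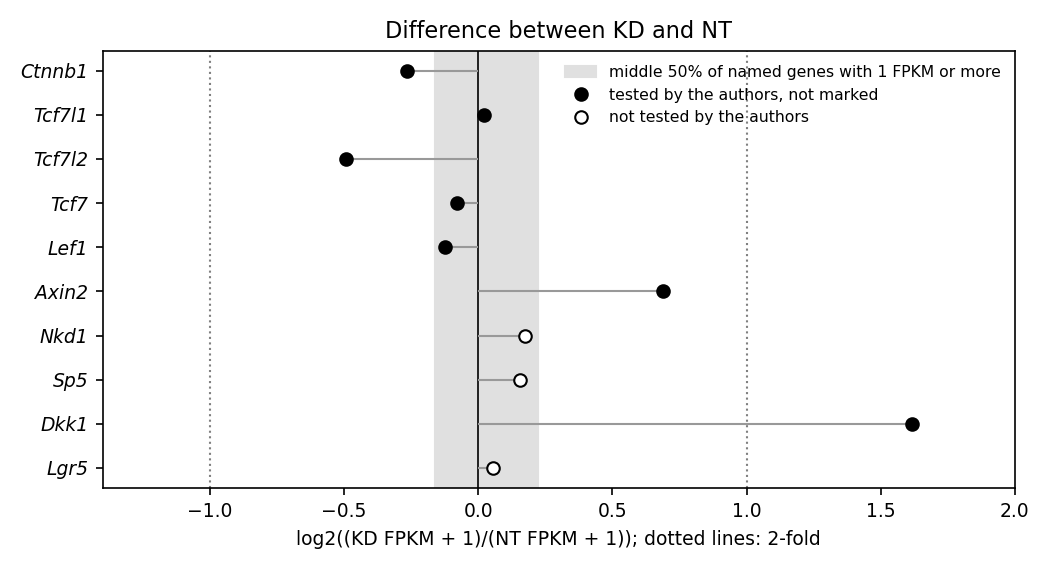
Difference between KD and NT for each of the 10 genes, as log2((KD FPKM + 1)/(NT FPKM + 1)) on the horizontal axis. The grey band holds the middle 50% of expressed named genes, from -0.16 to 0.22, open circles are genes the authors did not test, and Dkk1, at 1.62, is alone beyond the dotted lines at 2-fold.

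Dkk1 encodes Dickkopf 1, a secreted inhibitor that binds the LRP co-receptors and that visceral endoderm at the anterior of the mouse embryo also makes. It lies on chromosome 19 at 30620373 to 30623986. Dkk1 was at 2.52 FPKM in KD cells and 0.150 FPKM in NT cells, a ratio of 16.9 without a pseudocount. Its log2 difference with the pseudocount was 1.62, larger in absolute size than 98.8% of tested rows. The authors' deposited table gave p = 0.00505 and q = 0.171, so it did not pass their threshold. It was the 1 gene of the 10 past a 2-fold difference, where 3.71% of expressed named genes were past it, 3.19% higher and 0.525% lower in KD cells. Among the 3241 named genes with a mean of 1 to 5 FPKM, the range of Dkk1, 6.39% were at least 2-fold higher in KD cells.

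The low NT value of Dkk1 rests on few fragments. The most frequent low product of FPKM and transcript length was 0.0179 FPKM kb in the KD and 0.0336 FPKM kb in NT, taken here as the worth of 1 fragment. On that reading Dkk1 had about 343 fragments in the KD, over the 3 clones, and about 10.8 fragments in NT. The level of 3 fragments would be 0.0416 FPKM in NT cells, below the measured 0.150 FPKM. How the KD fragments were spread over the clones was not analysed here. Such figures cover counting error only.

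Axin2 encodes a scaffold of the destruction complex and is the most widely used readout of canonical Wnt signalling (chromosome 11, 108780119 to 108812095). Axin2 was at 2.28 FPKM in KD cells and 1.04 FPKM in NT cells, a ratio of 2.20. With the pseudocount the log2 difference was 0.69, larger in absolute size than 91.0% of tested rows. The authors' deposited table gave p = 0.0711 and q = 0.656, so Axin2 was not called. By the same measure of 1 fragment, and with the longest annotated coding transcript, the levels correspond to about 545 fragments in the KD and 132 fragments in NT.

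The remaining targets were under 1 FPKM in both conditions and were not tested by the authors. Nkd1, an inhibitor that binds Dishevelled (chromosome 8, 91045242 to 91118786), was at 0.291 FPKM in KD cells and 0.145 FPKM in NT cells. Sp5, a zinc-finger factor and direct target of beta-catenin (chromosome 2, 70312979 to 70315783), was at 0.114 FPKM in KD cells and listed at 0 in NT. Lgr5, an R-spondin receptor that marks intestinal stem cells (chromosome 10, 114887369 to 115024836), was at 0.0393 FPKM in KD cells and listed at 0 in NT. In the KD these levels correspond to about 66.6 fragments for Nkd1, 13.4 for Sp5 and 10.4 for Lgr5, summed over the clones and with the longest annotated coding transcript of each gene. In NT the Nkd1 level corresponds to about 17.6 fragments. A count of 3 fragments in NT would give 0.0481 FPKM for Sp5 and 0.0214 FPKM for Lgr5, and the 0 in NT allows levels up to those.

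The direction of these low targets was that of low genes in general. Of 6321 named genes under 1 FPKM in both conditions and above 0 in at least 1 of them, 73.1% were higher in the KD. Of 1803 named genes listed at 0 in 1 condition only, 89.2% were listed at 0 in NT, as Sp5 and Lgr5 were. Among expressed named genes 53.1% were higher in the KD. The part of sequencing depth in this lean of low genes was not tested. That Nkd1, Sp5 and Lgr5 were higher in the KD is therefore the more frequent outcome at their level in this table.

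**Figure D3:**
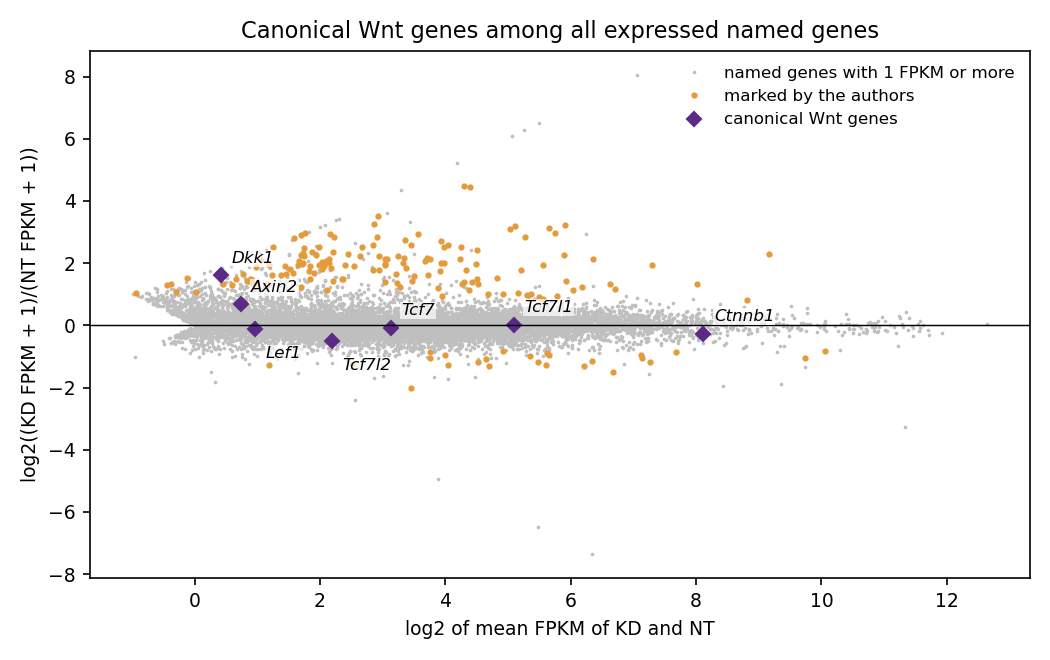
Log2 difference between KD and NT (vertical axis, pseudocount 1) against the log2 of the mean FPKM (horizontal axis) for named genes that reached 1 FPKM in either condition. Grey points are all such genes, orange points those marked by the authors, and purple diamonds the 7 canonical Wnt genes at that level. Dkk1 lies at 1.62 among genes of low mean level, and Ctnnb1 and Tcf7l1 lie at -0.27 and 0.020 among abundant genes.

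The start regions of Dkk1, Axin2 and Sp5 are shown because Dkk1 and Axin2 were the targets with the largest differences and Sp5 is a direct target that was listed at 0 in NT. Each is the 250 bases before an annotated start, 5′ to 3′ on the strand of the gene, from RefSeq on GRCm38.p6, not the build of the expression table. Capitals mark the letters CTTTGNN, where each N is A or T, on either strand. These are forms of the core that TCF/LEF factors bind. No match overlapped another in these 3 windows. The regions are chr19:30549497-30549746 on the minus strand for Dkk1, chr11:108920099-108920348 on the plus strand for Axin2 and chr2:70474673-70474922 on the plus strand for Sp5.
Dkk1: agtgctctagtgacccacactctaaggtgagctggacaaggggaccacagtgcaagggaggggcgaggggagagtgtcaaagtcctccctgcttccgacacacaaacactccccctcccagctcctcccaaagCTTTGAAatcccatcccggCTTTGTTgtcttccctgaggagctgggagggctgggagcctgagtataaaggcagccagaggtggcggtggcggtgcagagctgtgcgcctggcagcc
Axin2: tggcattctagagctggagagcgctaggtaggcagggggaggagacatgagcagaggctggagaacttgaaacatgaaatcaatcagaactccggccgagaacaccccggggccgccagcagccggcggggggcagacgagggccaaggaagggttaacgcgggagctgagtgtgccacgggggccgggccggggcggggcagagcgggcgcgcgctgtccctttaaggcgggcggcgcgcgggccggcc
Sp5: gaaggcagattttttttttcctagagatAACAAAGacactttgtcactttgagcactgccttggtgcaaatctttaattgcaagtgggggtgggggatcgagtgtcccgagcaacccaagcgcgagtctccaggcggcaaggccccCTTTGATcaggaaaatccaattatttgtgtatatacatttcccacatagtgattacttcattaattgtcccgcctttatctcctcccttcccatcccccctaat

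Dkk1 held CTTTGAA beginning 117 bases and CTTTGTT beginning 98 bases before its start, both on the strand of the gene. Sp5 held CTTTGAT beginning 104 bases before its start, and CTTTGTT on the other strand, 216 to 222 bases before the start. The Axin2 window held none of these letters, which says nothing of sites elsewhere in the gene. RefSeq entries matched 9 of the 10 genes, with 15 start windows between them, some of which overlap. Matches stood in 4 of the 15 windows (26.7%), namely 1 each for Dkk1 and Sp5 and 1 alternative start each for Tcf7l2 and Lef1. Of all 32851 windows of the same length, 14.8% held at least 1 match, so such letters are common.

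Markers of 4 cell types were read beside the 10 genes, in lists chosen with earlier results of these data known. All 8 of 8 primitive and parietal endoderm markers rose and were marked in the authors' deposited table, where 0.963% of all tested rows were marked higher. These markers had a summed level of 523 FPKM in KD cells and 97.7 FPKM in NT cells, and none was listed at 0. Of 7 feeder fibroblast markers 4 were tested and 0 marked. An unadjusted p under 0.05 by Cuffdiff was reached by 2, both higher in the KD, where 6.10% of all tested rows passed in that direction. The 2 were Col1a1, at 3.63 FPKM in KD cells and 0.920 FPKM in NT cells, and Col1a2, at 4.03 FPKM in KD cells and 1.12 FPKM in NT cells. The summed level of the 7 feeder markers was 15.7 FPKM in KD cells and 7.40 FPKM in NT cells, and Lum was listed at 0 in both. Within that sum Thy1 was the highest, at 7.06 FPKM in KD cells and 5.08 FPKM in NT cells. The 6 ES cell markers, which define the labelled cell type, were not marked and summed to 5288 FPKM in KD cells and 5029 FPKM in NT cells. By value 4 of them were higher in the KD and 2, Sox2 and Esrrb, were lower. Dppa5a, the most abundant, was at 2721 FPKM in KD cells and 2552 FPKM in NT cells, in a row shared with another symbol. Of 5 mesoderm and primitive streak markers 1 was tested and not marked, and they summed to 2.04 FPKM in KD cells and 1.78 FPKM in NT cells. The part of endoderm cells or feeders in the Dkk1 and Axin2 levels was not tested, and in such bulk samples fewer cells of a type and less RNA per cell cannot be told apart.

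Upstream of the 10 genes, ligands were low and the receptor machinery was present. Of 19 Wnt ligands 6 were tested, and none was marked by Cuffdiff. An unadjusted p under 0.05 was reached by 1, higher in the KD, where 6.10% of all tested rows passed in that direction. Wnt11 and Wnt7b were the highest in the KD, Wnt11 at 1.89 FPKM in KD cells and 1.59 FPKM in NT cells, and Wnt7b at 1.87 FPKM in KD cells and 0.504 FPKM in NT cells. Wnt7b, for which the authors' deposited table gave p = 0.00610 and q = 0.191, was the 1 at the unadjusted threshold. Wls, the carrier that brings Wnt proteins to the cell surface, was at 9.45 FPKM in KD cells and 3.14 FPKM in NT cells, for which the authors' deposited table gave q = 0.0524, just short of a call. Porcn, the enzyme that attaches the lipid to Wnt proteins, was at 23.2 FPKM in KD cells and 21.8 FPKM in NT cells.

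Among receptors, Fzd7 fell. It was at 14.4 FPKM in KD cells and 37.5 FPKM in NT cells, a log2 difference of -1.32, for which the authors' deposited table gave q = 0.00815. It was the 1 gene marked of 8 tested Frizzled receptors, where 0.187% of all tested rows were marked with a lower KD value, and the median of the 7 expressed ones was 0.10. Fzd5, the other abundant Frizzled, was at 32.5 FPKM in KD cells and 43.6 FPKM in NT cells and was not marked. None of 9 tested co-receptors, R-spondins, R-spondin receptors and receptor ubiquitin ligases was marked. At an unadjusted p under 0.05 by Cuffdiff there was 1, higher in the KD, where 6.10% of all tested rows passed in that direction. It was the R-spondin Rspo3, named after its values were seen, at 0.882 FPKM in KD cells and 0.159 FPKM in NT cells. The co-receptor Lrp6 was at 13.9 FPKM in KD cells and 11.3 FPKM in NT cells, a log2 difference of 0.28. Lrp6 lies on chromosome 6, where the median was 0.26. Lrp5 was at 9.64 FPKM in KD cells and 12.8 FPKM in NT cells. Lgr4, a relative of Lgr5, was at 13.2 FPKM in KD cells and 13.7 FPKM in NT cells, whereas Lgr5 itself was near 0.

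Genes of the list of secreted inhibitors differed in both directions by value. The list also held the membrane receptors Kremen1 and Kremen2, which are not secreted, and Dkkl1, counted here as a relative of the Dickkopf genes. Of 8 tested, none was marked by Cuffdiff and 3 had an unadjusted p under 0.05, 2 of them higher and 1 lower in KD cells, where 6.10% and 2.78% of all tested rows passed in those directions. The 2 higher were Dkkl1 and Sfrp2, of which Sfrp2 was named after its values were seen, and the lower was Sfrp1. Sfrp1, which binds Wnt ligands, was at 27.4 FPKM in KD cells and 41.0 FPKM in NT cells, for which the authors' deposited table gave q = 0.306. Sfrp2, of the same family, was at 1.33 FPKM in KD cells and 0.443 FPKM in NT cells. Sfrp4, also of that family and not among the 3, was at 3.18 FPKM in KD cells and 5.91 FPKM in NT cells. Dkkl1, a relative of the Dickkopf genes, was at 8.82 FPKM in KD cells and 3.46 FPKM in NT cells, for which the authors' deposited table gave q = 0.455. The median of the 7 expressed genes of this list was 0.014.

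Between receptor and nucleus none of the genes found was called. Of 18 listed genes of Dishevelled and the destruction complex 17 were found, and Apc was not among the 17. Of the 16 tested, none was marked and 0 had an unadjusted p under 0.05 by Cuffdiff. The 15 expressed ones had a median log2 difference of -0.023, with 4 above 0 and 11 below. Btrc, which marks beta-catenin for breakdown, had the largest difference of these 15, at 7.07 FPKM in KD cells and 9.19 FPKM in NT cells. Csnk1a1, the kinase that primes beta-catenin, was at 197 FPKM in KD cells and 199.96 FPKM in NT cells. Tnks2, a tankyrase that turns over Axin, was at 73.7 FPKM in KD cells and 74.0 FPKM in NT cells. Dvl2, the most abundant Dishevelled, was at 36.5 FPKM in KD cells and 45.6 FPKM in NT cells.

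Of 20 tested nuclear cofactors and repressors of beta-catenin, 2 rose and 18 were not marked, where 0.963% of all tested rows were marked with a higher KD value. The 2 were Sox17 and Sox7, which can restrain beta-catenin but are also endoderm markers of the list above. Sox17 was at 4.89 FPKM in KD cells and 0.551 FPKM in NT cells, for which the authors' deposited table gave q = 0.0320. Sox7 was at 8.13 FPKM in KD cells and 2.23 FPKM in NT cells, for which the authors' deposited table gave q = 0.0440. Tle5, a short member of the Groucho corepressor family, was at 173 FPKM in KD cells and 247 FPKM in NT cells, for which the authors' deposited table gave q = 0.373. Pygo2, which links beta-catenin to chromatin, was at 49.2 FPKM in KD cells and 50.05 FPKM in NT cells, in a row shared with another symbol.

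**Figure D4:**
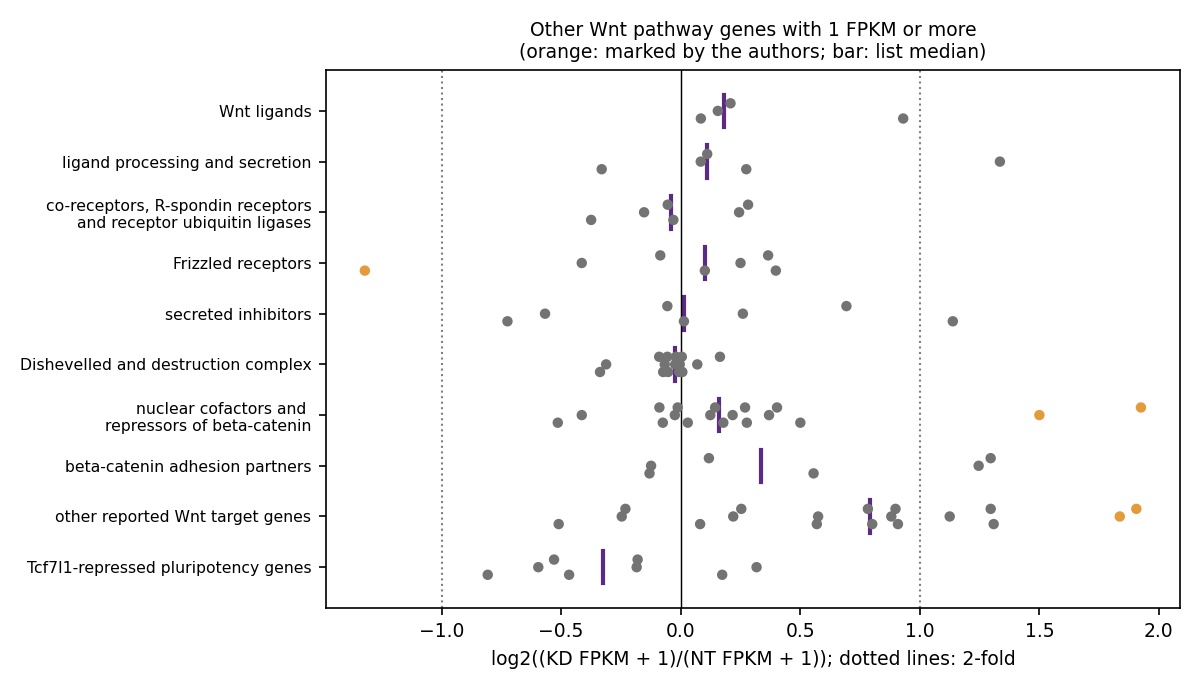
Log2 difference between KD and NT (horizontal axis, pseudocount 1) of other Wnt pathway genes that reached 1 FPKM in either condition, in 10 lists down the page. Each point is a gene, orange points were marked by the authors, and the purple bar is the list median, which is 0.79 for the other reported targets and -0.023 for Dishevelled and the destruction complex.

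A wider list of 25 genes reported as Wnt targets in various tissues was mostly higher in the KD by value. Of 18 tested, 2 rose, none fell and 16 were not marked, where 0.963% of all tested rows were marked higher. At an unadjusted p under 0.05 by Cuffdiff there were 9 of 18, all higher in the KD, against 6.10% of all tested rows. The 18 expressed genes had a median log2 difference of 0.79, with 15 above 0 and 3 below, and over all 25 without a minimum level the median was 0.25. The 2 that rose were Ccnd2 and Cd44, for both of which the authors' deposited table gave q = 0.00815. Ccnd2, cyclin D2, was at 7.12 FPKM in KD cells and 1.17 FPKM in NT cells, and lies on chromosome 6. Cd44, an adhesion receptor for hyaluronan, was at 7.59 FPKM in KD cells and 1.40 FPKM in NT cells. Ccnd1, cyclin D1, was at 36.7 FPKM in KD cells and 20.9 FPKM in NT cells, for which the authors' deposited table gave q = 0.126. Tbx3 and Vegfa, the most abundant of the list, were lower by value, Tbx3 at 77.9 FPKM in KD cells and 92.6 FPKM in NT cells, and Vegfa at 49.3 FPKM in KD cells and 58.0 FPKM in NT cells. Many genes of this list have other regulators, and several are also genes of mesenchyme or endoderm.

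Pluripotency genes that Tcf7l1 is known to repress were mostly lower in the KD by value. Of 8 tested, none was marked by Cuffdiff and 3 had an unadjusted p under 0.05, all lower in the KD, against 2.78% of all tested rows. Their median log2 difference was -0.33, with 2 above 0 and 6 below. Tcl1, a cofactor of the kinase AKT, was at 59.9 FPKM in KD cells and 106 FPKM in NT cells, for which the authors' deposited table gave q = 0.107. Nr0b1, an orphan nuclear receptor, was at 101 FPKM in KD cells and 153 FPKM in NT cells, for which the authors' deposited table gave q = 0.250. Nanog was at 489 FPKM in KD cells and 434 FPKM in NT cells, and it lies on chromosome 6, as Tcf7l1 does. Nanog and Esrrb are also in the list of ES cell markers, and genes of this list have other regulators too. The part of Tcf7l1, which itself differed by 0.020, in these differences was not tested.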

How the data were processed

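Total RNA of mouse TBV2 ES cells was extracted with TRIzol and sequenced as Illumina libraries, per the labels' protocols. TopHat, Cufflinks and Cuffdiff were used on mm9, per the submitters' processing notes; of their versions and options the sources used here say nothing. The authors deposited 1 FPKM per gene for a treated condition, taken as the 3 KD clones, and 1 for control, taken as NT. The deposited p-value and q-value come from Cuffdiff over 15477 tested rows, and the largest q among the 178 rows the authors marked was 0.0478. Since NT is 1 library, these p-values cannot include variation between control cultures.

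No test was run on the FPKM. The log2 differences were computed with a pseudocount of 1 FPKM, which understates changes of low genes, and "expressed" means at least 1 FPKM in either condition. Reads per library are not stated. The worth of 1 fragment came from transcripts of at least 1500 bases with 1 annotated isoform in GENCODE M21 (121 genes near the most frequent value in the KD and 93 in NT). Reads of overlapping rows may be shared, as a use of strand is not stated. The loci of Ctnnb1, Tcf7l1 and Lgr5 each overlap 1 other row, of which the highest, Gm15401 at Tcf7l1, was at 0.363 FPKM in KD cells and 0.328 FPKM in NT cells.

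The 10 genes and the lists were chosen with earlier results of these data known. Named beside them were marked genes, the 3 most abundant and the 2 with the largest difference in each list. Outside this rule, Rspo3 and Sfrp2 were named after their values were seen, and Kremen2 and Lum in passing. Not all genes picked by that rule are printed. Tcl1 and Esrrb each had 2 rows, of which the row with the higher mean FPKM was used. The calculation of differences was tested on simulated data. Changes were planted there only in genes of higher mean level than the target genes, so that test does not cover the targets. Python 3.11.15, pandas 2.3.3 and numpy 2.4.6 were used.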

Additional observations from a re-analysis of the deposited data

How the results depend on the processing

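With 1 FPKM per condition no replicate could be left out, and no paired analysis was made because the values used here do not separate the clones. Under 5 alternatives per gene (pseudocounts of 0.1 and 0.5, centring on all genes or on the chromosome, and summed rows), 9 of the 10 genes kept their sign. Tcf7l1 did not, with a range from -0.24 to 0.021. Dkk1 ranged from 1.59 to 3.39 and Axin2 from 0.65 to 1.06. With a pseudocount of 0.1 the median over the 10 genes was 0.25 in place of 0.038, and 3 genes in place of 1 passed 2-fold. Centred on the chromosome that median was -0.016, and over the 7 genes of at least 1 FPKM it was -0.078. At a 1.5-fold limit 2 genes passed. The count marked among the 10 stayed at 0 with q under 0.1 and with the p adjusted over 11987 named rows of at least 1 FPKM, where the smallest q was 0.148. For the other Wnt lists, the authors' mark called 5 of 104 tested genes (4.81%), where 1.15% of all tested rows were marked. These 5 include Sox17 and Sox7, which are also in the list of endoderm markers. With q under 0.1 the count was 9, and the share of all tested rows at that limit was not computed. By the adjustment over 11987 rows the count was 7, and 189 of those rows passed. Depth limits the targets, for which 3 fragments in NT cells correspond to between 0.0214 FPKM for Lgr5 and 0.0481 FPKM for Sp5.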

Other observations

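Beta-catenin also joins cadherins at cell junctions, and the genes of that complex were read as a separate list. Of 6 tested adhesion partners none was marked by Cuffdiff, and 3 had an unadjusted p under 0.05, all of them cadherins with a higher KD value, where 6.10% of all tested rows passed in that direction. Cdh3, P-cadherin, was at 4.83 FPKM in KD cells and 1.37 FPKM in NT cells, for which the authors' deposited table gave q = 0.0505. Cdh2, N-cadherin, was at 2.89 FPKM in KD cells and 0.638 FPKM in NT cells, for which the authors' deposited table gave q = 0.0867. Cdh1, E-cadherin and the most abundant of these cadherins, was at 78.0 FPKM in KD cells and 52.7 FPKM in NT cells, for which the authors' deposited table gave q = 0.301. The catenins that bind beside beta-catenin differed less by value. Ctnna1, alpha-catenin, was at 157 FPKM in KD cells and 172 FPKM in NT cells, and Ctnnd1, p120-catenin, was at 63.3 FPKM in KD cells and 58.2 FPKM in NT cells.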
